A study of Mus musculus with 8 samples.

Results

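The 10 genes described here build and regulate the elastic fibres of the extracellular matrix. They are the latent TGF-beta binding proteins Ltbp1, Ltbp2, Ltbp3 and Ltbp4, the fibrillins Fbn1 and Fbn2, elastin (Eln), and the assembly factors Fbln5, Loxl1 and Mfap4. They were chosen by gene family out of 33105 genes in the deposited count table, and all 10 were among the 16603 genes that passed the filter on low counts. The set was put together with earlier results of the same data known, in which Ltbp2 and Loxl1 had already been seen to be higher after mitral regurgitation. The values of these 2 genes are therefore given as a description with no test, and calls are counted among the other 8.

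Messenger RNA was sequenced from hearts of C57BL/6J mice in 2 groups of 4 libraries. The MR group had mitral regurgitation, a leak of the valve between left atrium and ventricle, made by minimally invasive surgery, and the controls had the label Sham. The study asked which pathways take part in hypertrophy under the volume load of a leaking valve and which genes mark it. No genotype, transgene or drug is named for either group, and both share strain and tissue. The age and sex of the mice, the time after the operation, what the Sham procedure consisted of, the part of the heart taken and whether each library came from its own animal are all unstated in the labels and protocols used.

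Elastic fibres let arteries, valves and the stroma of the heart stretch and recoil. They consist of a core of crosslinked elastin laid down on microfibrils made of fibrillin. Fibulins carry elastin to the microfibril, lysyl oxidases crosslink it, and latent TGF-beta binding proteins dock on fibrillin and, with the exception of LTBP-2, can hold the growth factor TGF-beta in an inactive store.

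The results turn on how differently the members of the Ltbp family stood in MR, so the sequence directly upstream of the start of 3 of them is shown, taken from the RefSeq promoter table for GRCm38.p6. That table held 6 of the 10 genes (Ltbp1, Ltbp2, Ltbp3, Ltbp4, Fbn1 and Fbln5). Capitals mark the SMAD-binding letters CAGAC, or GTCTG where the match is on the other strand. SMAD proteins are the transcription factors of TGF-beta signalling. The Ltbp2 window is chr12:84876533-84876741, minus strand, from base −250 to base −42 relative to the RefSeq start, and lies under an antisense gene, D030025P21Rik. The Ltbp4 window is chr7:27337693-27337862, minus strand, from base −250 to base −81, and the Ltbp1 window is chr17:75005279-75005528, plus strand, from base −250 to base −1. Bases inside annotated protein-coding genes were left out, so the windows differ in length.
Ltbp2: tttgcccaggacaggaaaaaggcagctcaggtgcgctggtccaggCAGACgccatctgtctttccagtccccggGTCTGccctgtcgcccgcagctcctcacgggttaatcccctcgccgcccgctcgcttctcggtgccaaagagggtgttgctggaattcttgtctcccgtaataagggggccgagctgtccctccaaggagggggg
Ltbp4: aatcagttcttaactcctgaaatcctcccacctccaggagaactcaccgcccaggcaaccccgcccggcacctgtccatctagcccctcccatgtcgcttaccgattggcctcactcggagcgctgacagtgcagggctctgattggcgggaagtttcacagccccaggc
Ltbp1: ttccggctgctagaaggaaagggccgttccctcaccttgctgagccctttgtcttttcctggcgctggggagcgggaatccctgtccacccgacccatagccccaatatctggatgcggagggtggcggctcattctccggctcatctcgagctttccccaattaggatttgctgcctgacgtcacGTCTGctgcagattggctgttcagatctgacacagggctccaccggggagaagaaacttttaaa
The Ltbp2 window of 209 bases held 2 matches, at −205 and −176, the Ltbp4 window of 170 bases held 0, and the Ltbp1 window of 250 bases held 1, at −64. The window of Ltbp3, which is not printed, had 250 bases and held 1 match, at −58. The table also lists a start inside the Ltbp1 gene, with 2 matches in its 250 upstream bases, at −148 and −97, and 2 starts inside the Ltbp4 gene with 0 matches. These inner windows are not printed, and which starts the heart uses was not tested. Among 32851 promoter windows cut to the same length, 37.1%, 31.8% and 42.2% held at least 1 match. A match of this length is common and is not evidence of a binding site. The other motifs searched, also on both strands, were those of AP-1, MCAT (bound by TEAD factors), the TATA box, the GC box and the CCAAT box. The AP-1 letters TGACTCA were in none of the 3 printed windows and in 2.96% to 4.46% of all windows of these lengths. The MCAT letters GGAATG were likewise in none of the 3 and in 9.12% to 12.6% of all windows. The TATA letters, TATAAA, were also in none, against 8.04% to 12.4% of all windows. The GC box, GGGCGG, occurred 1 time in Ltbp2, 2 times in Ltbp4 and 0 times in Ltbp1, and in 19.5% to 32.7% of all windows. The CCAAT box occurred 0, 2 and 3 times in these genes and in 23.3% to 33.8% of all windows. These counts leave out the bases nearest the start, those after −42 in Ltbp2 and after −81 in Ltbp4. The bases left out held a further GC box in each gene, at −9 in Ltbp2 and at −32 in Ltbp4, and no TATAAA. No match overlapped a match to another motif.

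Library totals ran from 42291511 to 58658094 counts, and levels are given as CPM, the count scaled to a common library total with TMM factors. A single count equalled 0.0167 to 0.0237 CPM, and the members had at least 101 counts in every library except Fbn2, which had 41 to 85. Sham replicate 3 stood apart from its group. On the first principal component of log2 CPM, which held 30.5% of the variance, it scored 7.2, while the other Sham libraries scored −32.4 to −15.7 and the MR libraries 12.6 to 22.8. The second component set off Sham replicate 1 (31.2). Results that rest on Sham replicate 3 are therefore given with and without it. Because this library was picked for lying towards the MR libraries, leaving it out favours a difference, and calls without it are a description only. Cardiomyocyte markers identified the tissue as heart muscle, with a summed level of 31500 to 37700 CPM in Sham against 27200 to 31600 CPM in MR, and lung markers summed to at most 0.209 CPM. Of all genes tested, 40 were higher and 36 lower in MR (0.458% in all, 0.241% higher), or 53 higher and 17 lower when libraries were scaled by their totals alone. Adjusted p-values are from the edgeR quasi-likelihood test with Benjamini-Hochberg adjustment over all 16603 genes, unless another tool or a library left out is named. A gene is said to rise or fall only below 0.05. The numbers in the library titles fall into a separate range for each group, so any difference in handling that follows them cannot be told apart from the operation.

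Ltbp2 was the member that differed most between MR and Sham hearts, at 2.97-fold the Sham level. Loxl1, at 1.43-fold, and Eln, at 1.43-fold, also had every MR library above every Sham library. Mfap4, Fbn1 and Ltbp4 were at 2.0-, 1.58- and 1.29-fold, with a Sham library reaching into the MR range in each. The other latent TGF-beta binding proteins Ltbp1 and Ltbp3, the fetal fibrillin Fbn2 and the fibulin Fbln5 lay within 1.19-fold of Sham in either direction. Of the 8 members other than Ltbp2 and Loxl1, 0 were higher and 0 lower in edgeR, beside 0.241% of all genes called higher. At an unadjusted p under 0.05 there were 4 of these 8, beside 15.1% of all genes. DESeq2 called 3 of them higher (2.37% of all genes) and limma-voom 4 (1.49%). All 4 MR values lay above all 4 Sham values in 3 of the 10 members, beside 4.19% of all genes, and the groups overlapped in 7. The median log2 fold change was 0.44 over the 10 members and 0.00 over all genes. Because the members were assembled with such values in view, nothing is read from these shares.

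**Figure D1:**
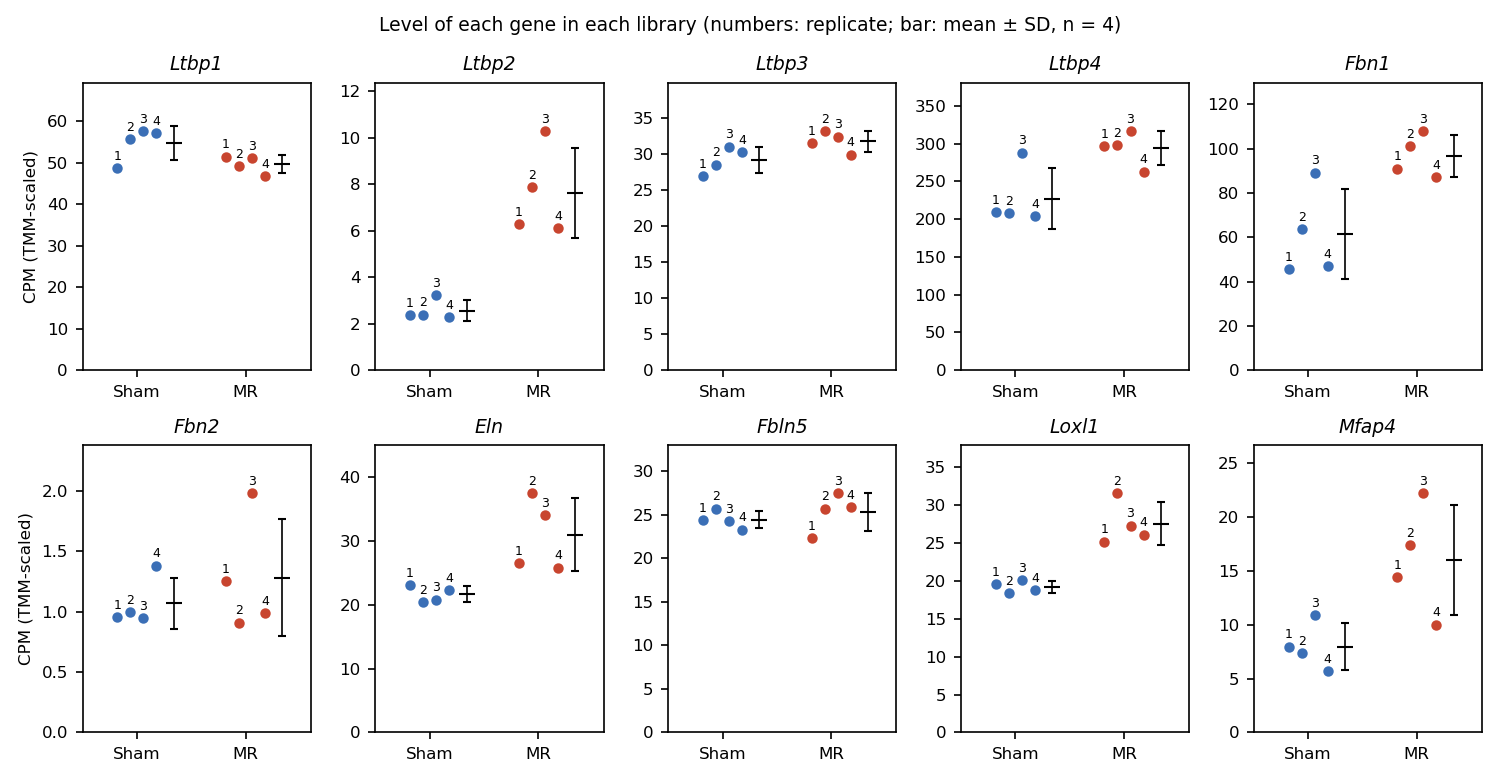
Level of each of the 10 genes in CPM (y axes, each from 0) in the 4 Sham (blue) and 4 MR (red) libraries. Each numbered point is a library, with mean ± SD beside it; Ltbp2, Eln and Loxl1 are the genes whose groups do not overlap, and Sham replicate 3 lies above the other Sham libraries for Ltbp2, Ltbp4, Fbn1 and Mfap4.

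LTBP-2 binds fibrillin and fibulins in the microfibril but does not take up latent TGF-beta. Ltbp2 (ENSMUSG00000002020, chromosome 12, 84783212 to 84876532, minus strand, GRCm38) was at 2.37, 2.39, 3.22 and 2.27 CPM in Sham replicates 1 to 4 and at 6.27, 7.87, 10.3 and 6.11 CPM in MR replicates 1 to 4. The lowest MR library was thus well above the highest Sham library, and replicate 3 was the highest library in each group. The means were 2.56 ± 0.442 CPM for Sham and 7.63 ± 1.93 CPM for MR (SD, n = 4), a log2 fold change of 1.57 with a standard error of 0.18, or of 1.70 (SE 0.18) without Sham replicate 3. In bulk tissue, more cells of a type and more RNA per cell cannot be told apart, nor can fewer cells and less RNA per cell. This holds for every gene described. The antisense gene D030025P21Rik shares 764 bases, or 9.335%, of the Ltbp2 exons. Its own count was 0 to 3 per library, against 101 to 442 for Ltbp2, and the strand setting of the counts is not given.

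Ltbp4, which joins elastin-bound fibulin to microfibrils and can also store TGF-beta, had the highest level per exon length. Ltbp4 (ENSMUSG00000040488, chromosome 7, 27305136 to 27337692, minus strand) was at 209, 208, 288 and 204 CPM in Sham against 297, 298, 317 and 263 CPM in MR. Sham replicate 3 lay above the lowest MR library, while the other 3 Sham libraries lay below all MR libraries. The group means were 227 ± 40.7 and 294 ± 22.6 CPM (SD, n = 4), the log2 fold change was 0.37 (SE 0.11), and the gene did not pass (adjusted p = 0.129). Without Sham replicate 3 the log2 fold change was 0.50 (SE 0.08) and Ltbp4 passed (adjusted p = 0.00333).

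Ltbp1 and Ltbp3 encode the other carriers of latent TGF-beta. Ltbp1 (ENSMUSG00000001870, chromosome 17, 75005568 to 75392512, plus strand) was at 48.7, 55.7, 57.7 and 57.1 CPM in Sham against 51.5, 49.2, 51.1 and 46.8 CPM in MR. It was the only member with a negative log2 fold change, −0.14 (SE 0.07, adjusted p = 0.366), and its groups overlapped through Sham replicate 1. Ltbp3 (ENSMUSG00000024940, chromosome 19, 5740904 to 5758532, plus strand) was at 26.9 to 31.0 CPM in Sham against 29.9 to 33.2 CPM in MR, and its log2 fold change was 0.12 (SE 0.07, adjusted p = 0.442). Neither gene passed without Sham replicate 3 (adjusted p 0.407 for Ltbp1 and 0.285 for Ltbp3).

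Loxl1, the lysyl oxidase that crosslinks elastin, varied little among the Sham libraries. Loxl1 (ENSMUSG00000032334, chromosome 9, 58287738 to 58313186, minus strand) was at 19.6, 18.4, 20.1 and 18.8 CPM in Sham against 25.2, 31.6, 27.3 and 26.1 CPM in MR. The groups did not overlap, and Sham replicate 3 was close to the other Sham libraries, at 1.06 times their mean. The means were 19.2 ± 0.779 and 27.5 ± 2.84 CPM (SD, n = 4), a log2 fold change of 0.52 with a standard error of 0.08. Eln, the elastic core protein itself (ENSMUSG00000029675, chromosome 5, 134702593 to 134747323, minus strand), was at 23.1, 20.4, 20.8 and 22.3 CPM in Sham against 26.5, 37.5, 34.0 and 25.8 CPM in MR. MR replicates 2 and 3 were the high ones, and all 4 MR libraries lay above Sham. The means were 21.6 ± 1.27 and 30.9 ± 5.73 CPM (SD, n = 4), with a log2 fold change of 0.51 (SE 0.11), which did not pass over all genes (adjusted p = 0.065). Without Sham replicate 3 the log2 fold change was 0.49 (SE 0.12) and it passed (adjusted p = 0.0387), as it did without MR replicate 4 (0.59, adjusted p = 0.049). Sham replicate 3 was not high for Eln, at 0.948 times the mean of the other Sham libraries, and the fold change was not larger without it. The antisense gene Gm30003 shares 267 bases with the Eln exons and had 0 to 7 counts per library.

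Mfap4, a microfibril-associated glycoprotein that binds elastin and fibrillin, had the second largest fold change and a wide spread. Mfap4 (ENSMUSG00000042436, chromosome 11, 61485431 to 61488900, plus strand) was at 7.96, 7.34, 10.9 and 5.68 CPM in Sham against 14.4, 17.4, 22.2 and 10 CPM in MR. Sham replicate 3 lay above MR replicate 4, the lowest MR library, and the groups overlapped only there. The means were 7.96 ± 2.16 and 16.0 ± 5.13 CPM (SD, n = 4), and the log2 fold change of 1.0 (SE 0.27) did not pass (adjusted p = 0.132). Without Sham replicate 3 it was 1.19 (SE 0.26) and passed (adjusted p = 0.0392). The Mfap4 exons share 89 bases with those of Mapk7, which was at 6.13 CPM in Sham against 5.64 CPM in MR. Fbln5, which carries elastin to the microfibril (ENSMUSG00000021186, chromosome 12, 101746565 to 101819055, minus strand), was at 23.3 to 25.7 CPM in Sham against 22.3 to 27.5 CPM in MR. Its log2 fold change was 0.06 (SE 0.08, adjusted p = 0.779).

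Fbn1 encodes fibrillin-1, the main fibrillin of adult microfibrils, and Fbn2 encodes fibrillin-2, which is best known from development. Fbn1 (ENSMUSG00000027204, chromosome 2, 125300594 to 125507993, minus strand) was at 45.5, 63.7, 89.2 and 46.9 CPM in Sham against 91.0, 101, 108 and 87.2 CPM in MR. Sham replicate 3 sat between MR replicates 4 and 1 and was 1.71 times the mean of the other Sham libraries, the largest such ratio among the members. The means were 61.3 ± 20.3 and 96.8 ± 9.51 CPM (SD, n = 4), and the log2 fold change of 0.66 (SE 0.21) did not pass (adjusted p = 0.188). Without Sham replicate 3 it was 0.89 (SE 0.12) and passed (adjusted p = 0.00173). Gm9913, annotated as protein-coding on the opposite strand, shares 20.14% of the Fbn1 exon length and had 0 to 3 counts per library. Fbn2 (ENSMUSG00000024598) was at 0.946 to 1.38 CPM in Sham against 0.909 to 1.98 CPM in MR. Its log2 fold change was 0.25 with a standard error of 0.26 (adjusted p = 0.707) and turned to −0.03 without MR replicate 3, the highest library.

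Levels of different genes were set side by side only after division by exon length, as CPM per kilobase of merged exons. On this scale Ltbp4 led in both groups, at 35.2 ± 6.30 in Sham and 45.4 ± 3.50 in MR, and Fbn2 was lowest, at 0.0809 ± 0.0159 and 0.097 ± 0.0368 (SD, n = 4). The highest mean level was 435 times the lowest in Sham and 468 times in MR. In Sham the order below Ltbp4 was Loxl1 (5.83 ± 0.236), Ltbp1 (5.13 ± 0.390), Fbn1 (5.06 ± 1.68), Mfap4 (4.14 ± 1.12), Fbln5 (3.53 ± 0.144), Ltbp3 (3.22 ± 0.202), Eln (2.67 ± 0.157) and Ltbp2 (0.313 ± 0.054). The ranges of neighbours from Ltbp1 down to Ltbp3 overlapped, and those of all other neighbours were separate. In MR, Loxl1 (8.35 ± 0.862), Mfap4 (8.32 ± 2.67) and Fbn1 (7.98 ± 0.784) overlapped as neighbours, and all lay above Ltbp1 (4.64 ± 0.204). Eln (3.82 ± 0.708), Fbln5 (3.67 ± 0.318) and Ltbp3 (3.50 ± 0.157) followed with overlapping ranges, and Ltbp2 (0.932 ± 0.236) stayed ninth of 10. Ltbp2 was thus the member with the largest fold and the lowest level but that of Fbn2. With the longest transcript in place of merged exons, Ltbp4 stayed highest and Fbn2 lowest, with Ltbp2 next to it, while other places moved. In Sham, Eln (5.62 ± 0.33) went from place 8 to place 4, above Fbn1, Ltbp3, Mfap4 and Fbln5. Ltbp1 (8.21 ± 0.625) went from place 3 to place 2. In MR, Mfap4 (9.04 ± 2.9) took place 2 from Loxl1.

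**Figure D2:**
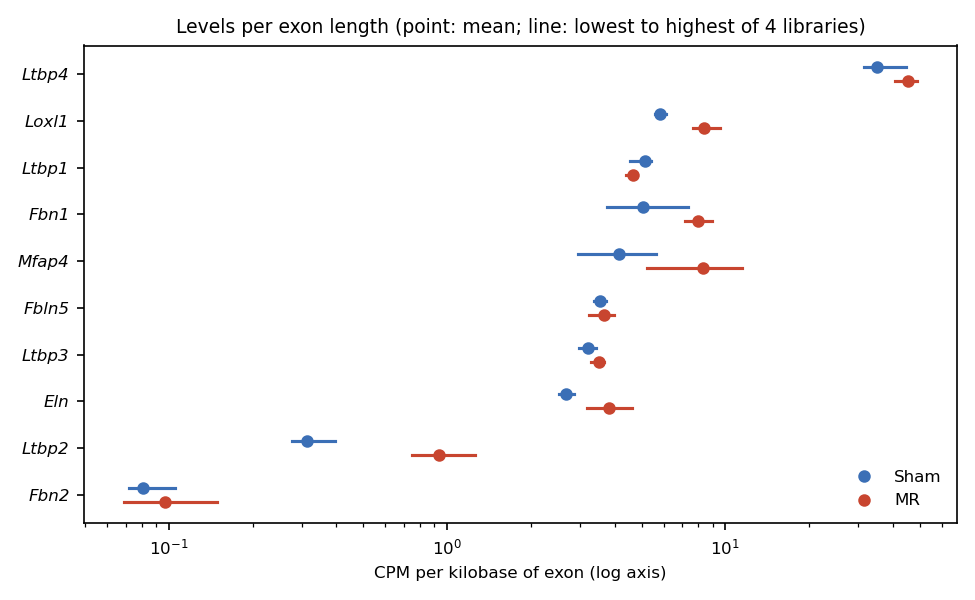
Level of each gene per kilobase of merged exon (x axis, CPM per kilobase, log axis), with the mean as a point and the lowest to highest of 4 libraries as a line, Sham in blue and MR in red. Ltbp4 lies far above and Ltbp2 and Fbn2 far below the other 7 genes, and the Sham and MR lines are separate for Ltbp2, Loxl1 and Eln.

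The makeup of the Ltbp family was computed in each library from levels per kilobase. Ltbp2 made up 0.720%, 0.716%, 0.731% and 0.683% of the summed family level in Sham and 1.39%, 1.74%, 2.14% and 1.52% in MR. In this share Sham replicate 3 was close to the other Sham libraries, and all MR libraries lay above all Sham libraries. In Sham replicate 3 both Ltbp2 and Ltbp4, which makes up most of the sum, were high. They were at 1.37 and 1.39 times the mean of the other Sham libraries. The mean share was 0.713% ± 0.0205 in Sham and 1.70% ± 0.327 in MR (SD, n = 4). The share of Ltbp1 was 10% to 13.2% in Sham and 8.16% to 8.92% in MR, with every MR library below every Sham library. Ltbp4 held 80.0% ± 2.18 of the family in Sham and 83.3% ± 0.344 in MR, and the summed family level was 43.8 ± 6.67 and 54.5 ± 3.99 CPM per kilobase with overlapping groups. Fbn1 made up 97.4% to 99.0% of the 2 fibrillins in Sham and 98.4% to 99.2% in MR. In the summed level of Eln, Fbln5, Loxl1 and Mfap4, the share of Fbln5 was 19.7% to 23.8% in Sham and 13.8% to 18.7% in MR, while the sum was 14.8 to 17.8 and 20.0 to 28.0 CPM per kilobase. A share falls when another member is higher, so these shares are not changes of the gene itself.

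Markers of the cells that make elastic fibres were read in the same libraries. The 6 resident fibroblast markers (Pdgfra, Dcn, Lum, Tcf21, Dpt and Col15a1) summed to 782 to 813 CPM in Sham against 809 to 909 CPM in MR, and 0 of 6 passed in edgeR (2 at an unadjusted p under 0.05, 0 by DESeq2 or limma-voom). Activated fibroblast markers summed to 44.8 to 62.7 CPM in Sham against 89.1 to 159 CPM in MR without overlap, and 0 of the 3 tested passed in edgeR (3 at an unadjusted p under 0.05, 1 higher by DESeq2 and 1 by limma-voom). Postn made up most of this sum, at 38.2 to 55.0 CPM and 80.1 to 146 CPM (adjusted p = 0.0678). Fap was at 4.55 to 4.88 CPM in Sham against 4.97 to 8.0 CPM in MR. Comp overlapped between the groups, at 1.9 to 3.26 CPM and 2.95 to 5.23 CPM, as did Cthrc1, which was below the filter. Smooth muscle markers summed to 243 to 265 CPM in Sham against 225 to 293 CPM in MR, with members in opposite directions. Acta2 was at 63.2 to 76.3 CPM in Sham against 75.5 to 132 CPM in MR, while Myh11 was at 37.1 to 51.1 and 35.0 to 39.9 CPM and Smtn at 125 to 142 and 110 to 127 CPM. Of these 6 markers 0 passed in edgeR, 3 were at an unadjusted p under 0.05 and DESeq2 called 1 higher. Over all genes, 15.1% were at an unadjusted p under 0.05, and DESeq2 and limma-voom called 2.37% and 1.49% higher. Epicardial markers summed to 6.62 to 11.7 CPM for Sham and 9.40 to 27.3 CPM for MR. Per 100 CPM of the summed resident fibroblast markers, Ltbp2 was at 0.279 to 0.407 CPM in Sham against 0.755 to 1.13 CPM in MR, a ratio of means of 2.77, and the groups did not overlap. On the same scale the ratio was 1.35 for Loxl1 and 1.34 for Eln without overlap, and 1.86 for Mfap4 and 1.48 for Fbn1 with overlap. Dcn, at 494 to 581 CPM in Sham, made up most of the fibroblast sum. Per 100 CPM of the summed smooth muscle markers, the ratio was 2.98 for Ltbp2 and 1.41 for Loxl1 without overlap. Eln overlapped on that scale, at 7.77 to 9.5 in Sham against 8.79 to 15.1 in MR, as did Mfap4 and Fbn1. The sum of activated fibroblast markers, most of it Postn, separated the groups. So did that of neutrophil markers (7.61 to 54.9 CPM in Sham against 2.90 to 5.56 CPM in MR). Of the 4 neutrophil markers tested, 0 passed in edgeR and 3 were at an unadjusted p under 0.05. DESeq2 called 3 lower and limma-voom 1, beside 2.22% and 1.26% of all genes. The part of either marker list in the values of the members was not tested.

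The genes whose pattern was most like that of Ltbp2 were ranked by Pearson's r of log2 CPM among 13311 genes with a mean of at least 1 CPM, the members left out. Over the 8 libraries, which share the group difference, these were Cilp (0.994), Kcnq1ot1 (0.983), Zup1 (0.980), Kctd12b (0.975) and Postn (0.974). Cilp encodes a cartilage-type matrix protein that heart fibroblasts also make. With the group means removed, which leaves the spread within groups over the same 8 libraries, the list was another: Rgs5 (0.990), a pericyte marker, Adgrl3 (0.963), Rhoj (0.961), Myef2 (0.958) and Slc35a3 (0.954). Picking the highest among so many genes on 8 libraries gives high values by itself, and these are a description only. Among the members, the values with the group means removed were 0.904 for Mfap4, 0.782 for Ltbp4, 0.719 for Fbn1, 0.598 for Ltbp3, 0.540 for Fbln5, 0.534 for Eln, 0.496 for Loxl1, 0.385 for Fbn2 and 0.373 for Ltbp1. Loxl1 was the member most like Ltbp2 over all libraries (0.944) and among the less alike within groups. Within groups Loxl1 went with Eln (0.810) and Fbn1 with Ltbp4 (0.870). The points share library depth and scaling and include Sham replicate 3, in which Ltbp2, Ltbp4, Fbn1 and Mfap4 were all high.

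Sham replicate 3 was the highest Sham library for 7 of the 10 members, where 26.9% of all genes had their highest Sham value in it. Relative to the mean of the other Sham libraries it was at 1.71 for Fbn1, 1.55 for Mfap4, 1.39 for Ltbp4 and 1.37 for Ltbp2, and at 0.948 for Eln. Without it 4 of the 8 members other than Ltbp2 and Loxl1 were called higher (Ltbp4, Fbn1, Eln and Mfap4), beside 2.96% of 16813 genes tested. All MR values lay above the other 3 Sham values in these 4 and in Ltbp2 and Loxl1, beside 9.61% of all genes. Within MR, replicate 3 was the highest library for 6 members (26.3% of all genes) and replicate 4 the lowest for 7 (25.0%). Leaving out each of the 8 libraries in turn gave log2 fold changes of 1.39 to 1.70 for Ltbp2, 0.45 to 0.56 for Loxl1, 0.41 to 0.59 for Eln, 0.80 to 1.19 for Mfap4, 0.53 to 0.89 for Fbn1 and 0.32 to 0.50 for Ltbp4. Ltbp4, Fbn1 and Mfap4 passed in 1 of these 8 fits, that without Sham replicate 3. Their adjusted p in the others ran up to 0.355, 0.38 and 0.28. Eln passed in 2, with an adjusted p of up to 0.171 in the rest. Over all genes 497 were called higher without Sham replicate 3, against 40 with all libraries, 1 without Sham replicate 2 and 3 without Sham replicate 4.

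**Figure D3:**
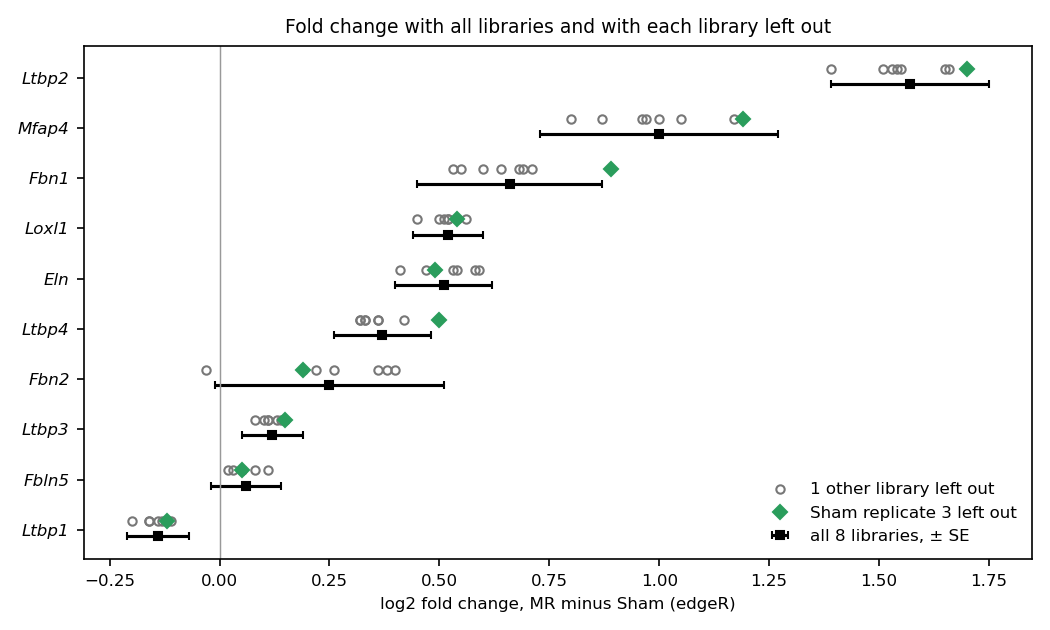
Log2 fold change of MR over Sham (x axis) for the 10 genes, with all 8 libraries (black square, ± SE) and with each library left out in turn (open circles, green diamond for Sham replicate 3). Leaving out Sham replicate 3 gives the highest value for Ltbp2, Mfap4, Fbn1 and Ltbp4 and moves Loxl1 and Eln little.

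The partners of these genes were taken as 24 other components of microfibrils and elastic fibres, of which 23 were tested. Of these, 0 were higher and 0 lower in edgeR, and 8 of 23 were at an unadjusted p under 0.05, beside 15.1% of all genes. DESeq2 called 5 higher (2.37% of all genes) and 2 lower (2.22%), and limma-voom called 3 higher (1.49%). In edgeR 18 had a positive and 5 a negative log2 fold change, beside 8370 and 8233 of all genes. The median was 0.17 against 0.00 over all genes. Fbln2, a fibulin of microfibrils and basement membranes, was at 71.4, 80.8, 78.6 and 78.8 CPM in Sham against 92.5, 96.3, 99.8 and 95.9 CPM in MR. All MR libraries lay above Sham, and the log2 fold change of 0.31 (SE 0.06) did not pass (adjusted p = 0.0513). Adamtsl2, a secreted protein that binds fibrillin-1 and LTBP-1, was at 13.0, 10.2, 15.3 and 9.92 CPM in Sham against 20.1, 21, 24.4 and 15.6 CPM in MR. Its log2 fold change was 0.74 (SE 0.16, adjusted p = 0.065), and its groups did not overlap. Fbln2 passed without Sham replicate 3 (adjusted p = 0.0223), with a log2 fold change of 0.32 that had hardly moved. Adamtsl2 passed without Sham replicate 3 (0.00473) or MR replicate 4 (0.0414). Further genes of the list are given here, chosen once their values had been seen. The other lysyl oxidases had log2 fold changes of 0.87 for Loxl2 (adjusted p = 0.0678), 0.46 for Loxl3 (adjusted p = 0.0862), 0.33 for Loxl4 (adjusted p = 0.498) and 0.18 for Lox (adjusted p = 0.671). The microfibril glycoproteins Mfap5 and Mfap2 were at 0.60 (adjusted p = 0.151) and −0.22 (adjusted p = 0.701). All MR values lay below all Sham values in Adamtsl3 and Adamtsl4, relatives of Adamtsl2, with log2 fold changes of −0.46 (adjusted p = 0.126) and −0.24 (adjusted p = 0.117). These were the only 2 such genes among the 23 tested, beside 649 of all 16603 genes. All MR values lay above all Sham values in 5 of the 23, beside 4.19% of all genes. Lox, the founding member of the enzyme family, was at 3.81 to 6.85 CPM in Sham against 5.04 to 7.44 CPM in MR.

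**Figure D4:**
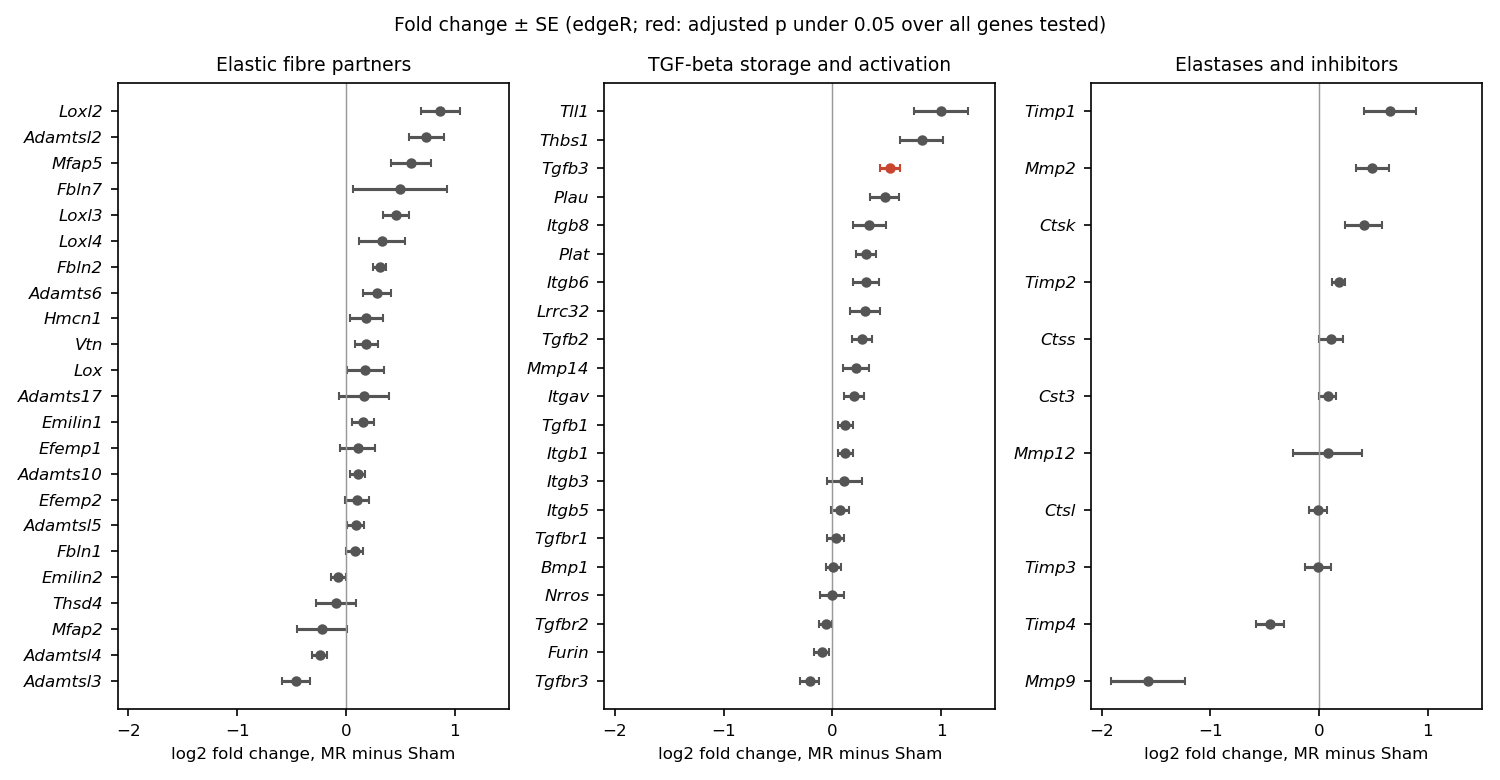
Log2 fold change of MR over Sham ± SE (x axis) for the tested elastic fibre partners (23 genes), genes of TGF-beta storage and activation (21) and elastin-degrading proteases with their inhibitors (11). Tgfb3 (red) is the only gene plotted with an adjusted p under 0.05 over all genes, and Mmp9 has the most negative value.

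Genes that store, release and receive TGF-beta, the cargo of the Ltbp1, Ltbp3 and Ltbp4 proteins, included 1 that rose and 0 that fell among 21 tested, beside 0.241% of all genes called higher. There were 11 at an unadjusted p under 0.05, beside 15.1% of all genes, and the median log2 fold change was 0.20. Tgfb3, a TGF-beta ligand, rose from 10.6 ± 1.13 to 15.2 ± 0.903 CPM (SD, n = 4), a log2 fold change of 0.53 with a standard error of 0.09 (adjusted p = 0.0293). It was at 9.05 to 11.6 CPM in Sham against 14.3 to 16.4 CPM in MR, and the call was lost without Sham replicate 2 or 4 or any single MR replicate (adjusted p 0.0597 to 0.107). Tll1, a protease of the BMP1 family that trims matrix proteins, was at 0.467 ± 0.111 and 0.932 ± 0.105 CPM (SD, n = 4), and the log2 fold change was 1.0 (SE 0.25, adjusted p = 0.0862). Its counts were low, at 14 to 25 per Sham library and 35 to 60 per MR library. Tll1 passed in 0 of the 8 fits with a library left out. Thbs1, which encodes the TGF-beta activator thrombospondin 1, was at 6.86 ± 2.36 and 12.2 ± 1.90 CPM (SD, n = 4), and its log2 fold change of 0.82 (SE 0.20) did not pass (adjusted p = 0.0873). Without Sham replicate 3, 5 genes of this list were higher, Thbs1 among them (adjusted p = 0.00105), beside 2.96% of all genes. Of 6 target genes that TGF-beta signalling commonly induces, 0 passed in edgeR, and 3 were at an unadjusted p under 0.05, beside 15.1% of all genes. DESeq2 and limma-voom each called 1 higher (2.37% and 1.49% of all genes), and the median log2 fold change was 0.07. Pmepa1, an induced inhibitor of the pathway, was at 23.1 ± 1.75 and 32.0 ± 4.50 CPM (adjusted p = 0.0513), while Smad7, another inhibitor, was at 17.2 ± 2.20 and 13.9 ± 0.964 CPM (adjusted p = 0.147). Pmepa1 passed without Sham replicate 1 (0.0336), Sham replicate 3 (0.0246) or MR replicate 1 (0.0428). Its log2 fold change was 0.47 both with all libraries and without Sham replicate 3.

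Elastin-degrading proteases and their inhibitors were the last list, with 13 of 14 genes found in the table and 11 tested. Of these, 0 were higher and 0 lower in edgeR, with a median log2 fold change of 0.08. There were 6 at an unadjusted p under 0.05, beside 15.1% of all genes. DESeq2 called 1 higher (2.37% of all genes) and 2 lower (2.22%). Mmp9, a gelatinase made by neutrophils and macrophages among other cells, was at 1.30, 0.900, 0.856 and 2.42 CPM in Sham against 0.567, 0.443, 0.418 and 0.419 CPM in MR. Sham replicate 4 was highest, as it was for the summed neutrophil markers, and the log2 fold change was −1.57 (SE 0.34, adjusted p = 0.0587). Timp4, a metalloproteinase inhibitor of the heart, was at 46.8 ± 5.55 and 34.2 ± 6.74 CPM (SD, n = 4), a log2 fold change of −0.45 with a standard error of 0.13 (adjusted p = 0.122). Without Sham replicate 3 both passed (adjusted p 0.00869 for Mmp9 and 0.0301 for Timp4). That was the only 1 of the 8 fits with a library left out in which either passed. Without Sham replicate 4, its highest library, Mmp9 had a log2 fold change of −1.14 (adjusted p = 0.168). The Mmp9 counts were 18 to 112 per library.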

How the data were processed

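The authors deposited raw read counts, 1 column for each library and 1 line for each Ensembl gene. The submitters' processing notes name HISAT2 2.0.5 and mm10 and give no roles. Not given in the sources used here are the counter, annotation release and strand setting. Per the labels' protocols, libraries came from powdered frozen heart, TRIzol RNA and an mRNA kit. Symbols, coordinates and merged exon lengths are those of GENCODE for GRCm38 (32350 of 33105 identifiers matched, 755 without a symbol).

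Counts were filtered with filterByExpr (minimum count 10, minimum total 15), scaled by TMM and compared between MR and Sham with the edgeR 4.0.16 quasi-likelihood F test, robust, in R 4.3.3. Every adjusted p is from this fit over all 16603 genes (Benjamini-Hochberg, threshold 0.05) unless another tool or a library left out is named. Each fit with a library left out was filtered, scaled and adjusted anew, over 16813 genes for that without Sham replicate 3. The method was also run on simulated counts. These had a common dispersion and no outlying library, so they do not bear on how calls depend on Sham replicate 3. The standard error is the log2 fold change over the square root of F. Likeness to Ltbp2 used log2 CPM with a prior count of 2. The alternatives were RLE factors, library totals alone, no filter, DESeq2 1.42.0, limma-voom with quality weights (limma 3.58.1), a filter of 1 CPM in 4 libraries, an offset for exon length and each library left out.

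Members, lists and tests were chosen with earlier results of these data known. The genes named are the 10 members, in every other list the genes past the threshold and the 2 of lowest p among the rest, the 5 genes most like Ltbp2 on each measure, and defining markers, beside partner genes that the report marks as chosen with their values known. The labels do not say that libraries came from separate animals, so p-values reflect only how these libraries vary, and that variation may be technical. No pair of replicates agreed within counting noise (chi-square per degree of freedom 12 to 42.6). Genes with a count of 2 outnumbered those with a count of 1 by 2.27 to 2.82 times in each library, as happens where the mates of a read pair are counted separately, so a total may exceed its number of fragments.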

Additional observations from a re-analysis of the deposited data

Results flagged for a closer look

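In 3 members a single Sham library lay apart from the other 3 by a gap larger than Dixon's 95% limit for groups of 4, a limit that chance passes in about 1 of 20 groups. Ltbp2 was at 3.22 CPM in Sham replicate 3 against 2.27 to 2.39 CPM in the other Sham libraries, a gap of 0.869 of the group's range. Ltbp4 was at 288 CPM in the same library against 204 to 209 CPM in the others (0.943 of the range). Fbn2 was at 1.38 CPM in Sham replicate 4 against 0.946 to 0.995 CPM (0.888 of the range), which is 64 counts against 41 to 42. The cause of these gaps was not tested.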

How the results depend on the processing

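The genes counted as higher and lower in MR (40 and 36 over all genes) were 517 and 419 with no filter, 355 and 333 with DESeq2, 248 and 209 with limma-voom, and 115 and 112 with the length offset. Genes counted as lower were 17 with totals alone and 20 with the 1 CPM filter. Members counted as higher (2, Ltbp2 and Loxl1, whose count supports nothing) were 4 with no filter, 5 with DESeq2 and 6 with limma-voom. DESeq2 added Ltbp4 (adjusted p = 0.039), Eln (0.00359) and Mfap4 (0.0273). Partners higher (0) were 1 with totals alone, 5 with no filter, 5 with DESeq2, 3 with limma-voom and 1 with the length offset, and partners lower (0) were 1 with no filter and 2 with DESeq2. TGF-beta storage genes higher (1) were 5 with no filter, 5 with DESeq2 and 3 with limma-voom. Target genes higher (0) were 1 with totals alone, 2 with no filter and 1 each with DESeq2, limma-voom and the length offset, and 1 was lower with no filter. Proteases and inhibitors higher (0) were 1 with no filter and 1 with DESeq2, and lower (0) were 2 with no filter, 2 with DESeq2 and 1 with the length offset. With a library left out the counts ran from 1 to 497 (all higher), 2 to 390 (all lower), 1 to 6 (members higher), 0 to 3 (partners higher), 0 to 5 (storage higher), 0 to 1 (targets higher), 0 to 1 (proteases higher) and 0 to 2 (proteases lower), and each of these highest counts came without Sham replicate 3, for target genes also without Sham replicate 1 or MR replicate 1. The cause was not tested. The log2 fold change of Fbn2 ran from −0.03 (without MR replicate 3, adjusted p = 0.979) to 0.40 (without Sham replicate 4). No member was lower under any of these settings. No paired analysis was possible because the groups share no numbers in the labels. Fbn2 had the fewest counts of the members, 41 to 85 per library.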
